A study of Mus musculus with 15 samples.

Results

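Cdx1, Cdx2 and Cdx4 are the mouse homologues of the fly gene caudal, and their messenger RNA was measured on Agilent 1-colour arrays in embryonic stem (ES) cells and in the embryoid bodies that the labels call EB9. They were chosen by name, as all non-control probes on the array whose gene name is Cdx1, Cdx2 or Cdx4. That gave 3 genes with 1 probe each, of 30818 gene names and 39429 probes in all. The arrays were made from 500 ng of total RNA each and form 4 groups. The first is EB9 with the Polycomb gene Cbx7 depleted (Cbx7 knockdown, 4 arrays), and the second is EB9 controls (4 arrays). The third is ES cells with Cbx7 knockdown (4 arrays), and the fourth is ES controls (3 arrays, numbered 2, 3 and 4). The knockdown samples carry KD33 in their labels and the control samples have the treatment "none"; the design text calls the ES controls shCtr. Both knockdown groups carry the same KD33 tag, so variation between knockdown constructs cannot be seen here. The labels call the samples of a group biological replicates, with no further statement of where they came from, and p-values measure the spread between these samples.

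Cdx proteins are homeodomain transcription factors of the posterior embryo. Wnt, FGF and retinoic acid signals turn their genes on in the caudal epiblast and tail bud, and Cdx proteins in turn activate central and posterior Hox genes and sustain elongation of the body axis. Cdx2 is also needed for the trophectoderm of the blastocyst and for intestinal identity, and Cdx genes, Cdx4 among them, have a part in embryonic blood formation. Cbx7 is a chromobox subunit of Polycomb repressive complex 1, which keeps developmental regulators silent, and Hox and Cdx genes are classic Polycomb targets. Embryoid bodies are aggregates in which ES cells differentiate into derivatives of all germ layers.

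The sequence around the start site was available for Cdx2 and Cdx4 from RefSeq (build GRCm38.p6), matched by symbol, as windows of 300 bases read in the direction of the gene. The windows are shown because both hold the octamer ATGCAAAT, the element read by POU factors such as Pou5f1, which is set in capitals. The Cdx2 window is chr5:147307200-147307499 on the minus strand, and the Cdx4 window is chrX:103321148-103321447 on the plus strand.
Cdx2: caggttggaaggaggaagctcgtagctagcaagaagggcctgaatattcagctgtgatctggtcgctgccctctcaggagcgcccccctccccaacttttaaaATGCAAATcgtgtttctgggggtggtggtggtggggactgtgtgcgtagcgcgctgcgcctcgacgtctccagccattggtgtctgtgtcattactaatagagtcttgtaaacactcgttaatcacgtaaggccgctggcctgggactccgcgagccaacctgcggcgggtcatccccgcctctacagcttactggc
Cdx4: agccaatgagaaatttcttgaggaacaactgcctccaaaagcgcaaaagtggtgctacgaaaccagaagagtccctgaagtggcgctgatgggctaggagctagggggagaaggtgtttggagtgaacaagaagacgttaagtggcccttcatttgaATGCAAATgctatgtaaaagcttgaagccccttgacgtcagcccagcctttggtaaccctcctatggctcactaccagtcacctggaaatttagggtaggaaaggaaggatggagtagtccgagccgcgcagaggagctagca

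The octamer lies at -147 to -140 from the start site in Cdx2 and at -93 to -86 in Cdx4. Of 32851 windows of the same length in the table, 570 hold ATGCAAAT on either strand, which is 1.74%. The cyclic AMP response element TGACGTCA was found in Cdx4 at -61 to -54, and 1.79% of the windows hold it. CCAAT was found in both, in Cdx2 on the opposite strand, and in 37.4% of windows. The searched motifs do not overlap each other in these windows. No match was found in either for the LEF/TCF motif CTTTGAT (3.73% of windows), the Cdx motif TTTATG (11.9%) or the TATA box TATAAA (13.6%). Cdx2 holds 18 CpG dinucleotides and Cdx4 holds 8, beside a median of 7.0 over the windows. The motifs were chosen with the sequences in view, and a match describes letters only.

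The probe of Cdx1 lies at chr18:61178558-61178617 on the minus strand, that of Cdx2 at chr5:148112547-148112606 on the minus strand, and that of Cdx4 at chrX:100525392-100525451 on the plus strand, all in build mm9 as the files give them. The files tie the probes to NM_009880, NM_007673 and NM_007674; which exon each lies in was not analysed here. Levels are the software's background-corrected signal on the log2 scale, less that of the array's 75th percentile, so that 0 is the level of a gene brighter than 75% of the array's features. Levels of different probes are not set against each other.

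The 75th percentile of the signal ranged from 1483 to 2531 over the 15 arrays, and the scanner software called 62.5 to 75.4% of features well above background, the highest share being that of EB9 control 2. Probes called so on at least 3 arrays of a group were kept, which left 21184 genes. The 6 defining ES-cell genes summed to 18.6 to 22.2 times the 75th percentile in EB9 knockdown and 15.3 to 19.7 times in EB9 controls. They summed to 276 to 339 times in ES knockdown and 294 to 306 times in ES controls, and 6 of 6 were well above background on every array. Germ-layer genes (12 of 13 kept; Mixl1 was not) summed to 122 to 208 in EB9 knockdown and 131 to 226 in EB9 controls, against 2.14 to 2.47 in ES knockdown and 2.73 to 3.35 in ES controls. Fibroblast genes (8 of 8 kept) summed to 102 to 159, 95.7 to 142, 4.09 to 4.39 and 3.75 to 3.99 times in the same groups, and 4 of the 8 were well above background on no ES array. The sums therefore match the labels, but not every member does. Hbb-bh1, at a mean level of 7.22 in EB9 knockdown and 7.06 in EB9 controls, makes up most of the germ-layer sum there. On the same list, Tubb3 averaged 0.99 in ES controls and -1.44 in EB9 controls, and Pax6 -5.78 and -6.26. Of the fibroblast genes, Thy1 was lower in EB9 in controls and in knockdown (1.64 in ES knockdown, -3.01 in EB9 knockdown). In controls the other kept genes of both lists averaged higher in EB9. EB9 thus holds fibroblast-type transcripts, whose part in the Cdx values was not tested. In bulk RNA, fewer cells of a type and less RNA per cell cannot be told apart.

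Cbx7 itself was measured by 2 probes. On probe A_55_P1980401 the ES knockdown arrays read -7.85, -4.44, -4.61 and -7.37, against -6.30, -3.14 and -3.04 in ES controls. The EB9 knockdown arrays read -8.47, -5.78, -5.92 and -8.57, against -8.16, -5.42, -5.40 and -8.69 in EB9 controls. Arrays on slides 1 and 4 were the dim ones in every group they held, so the spread between slides was wider than the knockdown difference. The ES difference was -1.91 (SE 1.23, limma adjusted p = 0.256), and -1.41 (SE 0.17, adjusted p = 1e-04) with the slide as a block. In EB9 it was -0.27 (SE 1.14, adjusted p = 0.92), and with the slide block its adjusted p was 0.221. Probe A_55_P1980408 gave -0.13 in ES cells (SE 0.23, adjusted p = 0.733) and -0.16 in EB9 (SE 0.22, adjusted p = 0.708), and with the slide block its adjusted p was 0.868 in ES cells and 0.36 in EB9. The fall of Cbx7 in ES cells thus rests on 1 of 2 probes and on the slide block. The groups labelled knockdown in EB9 therefore carried no measured fall of Cbx7 past the threshold on either probe. On A_55_P1980401 no EB9 array of slides 1 and 4 was well above background, so those values cannot show a fall. On slides 2 and 3, EB9 knockdown read -5.78 and -5.92 on that probe, against -5.42 and -5.40 in EB9 controls. The differences in EB9 below are between the groups as labelled.

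Cdx1 was high in ES cells and low in EB9. The EB9 knockdown arrays read -4.55, -3.89, -4.44 and -4.37, and the EB9 controls read -3.78, -2.34, -3.28 and -3.21. The ES knockdown arrays read 2.46, 2.25, 2.13 and 2.42, and the ES controls read 1.86, 1.65 and 1.67. The 4 groups did not overlap, and their order was EB9 knockdown, EB9 control, ES control and ES knockdown, low to high. In intensity units the EB9 arrays spanned 80.1 to 499 and the ES arrays 6199 to 8884. EB9 control 2 was the highest of the EB9 arrays.

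Cdx2 showed the opposite order between the stages. The EB9 knockdown arrays read 1.30, 1.84, 1.31 and 1.43, and the EB9 controls 1.65, 2.01, 2.15 and 2.14. The ES knockdown arrays read -3.46, -2.42, -3.08 and -3.23, and the ES controls read -4.11, -4.09 and -4.01. EB9 knockdown and EB9 control overlapped through knockdown 2 and control 1, and no other groups did. The ES knockdown arrays had an SD of 0.45 (n = 4) and the ES controls one of 0.05 (n = 3), and ES knockdown 2 was the highest of the ES arrays. The order was ES control, ES knockdown, EB9 knockdown and EB9 control, low to high.

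**Figure D1:**
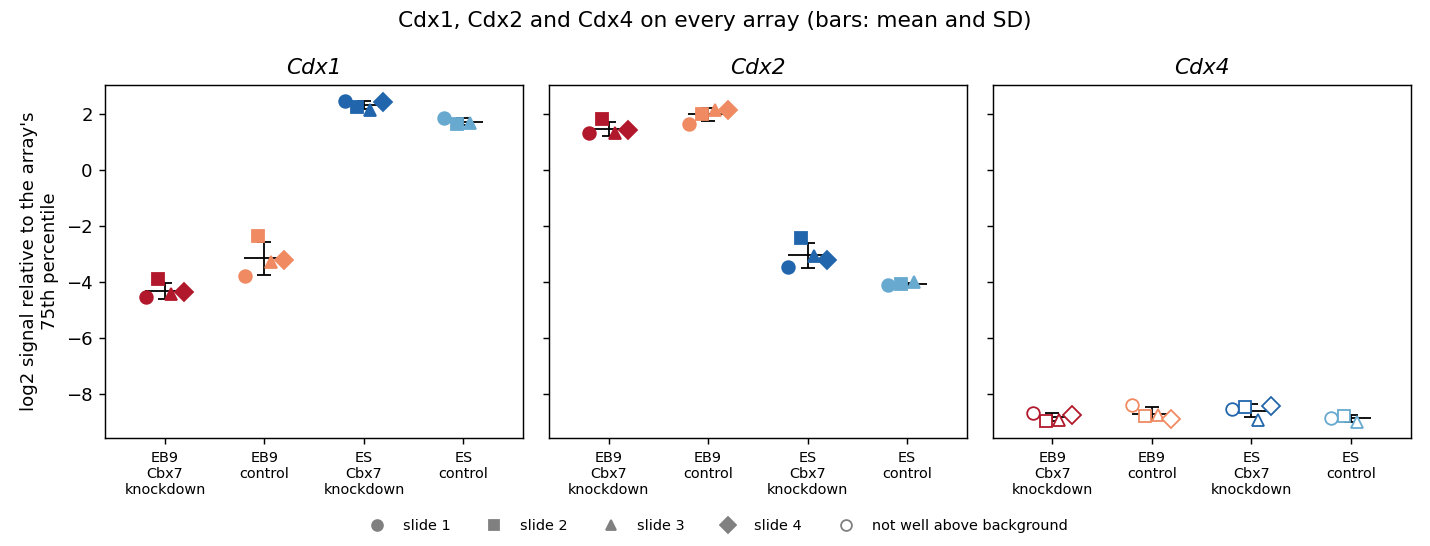
Level of each Cdx probe on every array (log2 signal relative to the array's 75th percentile) by group, with the mean and SD as bars and the slide as the marker shape. Cdx1 lies between -4.55 and -2.34 in EB9 and between 1.65 and 2.46 in ES cells, Cdx2 is the higher in EB9, and the open Cdx4 markers were not well above background on any of the 15 arrays.

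Cdx4 was not well above background on any of 15 arrays. Its intensities were 4.78, 4.45, 3.75 and 3.84 in EB9 knockdown, and 5.17, 5.71, 4.91 and 5.04 in EB9 controls. They were 4.32, 4.79, 4.08 and 4.26 in ES knockdown, and 4.76, 4.79 and 3.79 in ES controls. The lowest intensity that still counted as well above background was 15.5 to 24.7, depending on the array, and on all 15 arrays the software had replaced the Cdx4 signal by a surrogate value. These values therefore bound Cdx4 from above and have no order, and no fold is given. Cdx4 did not enter the main test. In a fit to all 30818 names without the filter, its adjusted p was 0.194 for knockdown in ES cells and 0.61 in EB9 (limma). That fit used the surrogate values, so it cannot show whether Cdx4 changed.

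The first question was how the Cdx genes differ between embryoid bodies and the ES cells they come from. In control samples Cdx1 averaged -3.15 ± 0.60 in EB9 (SD, n = 4) and 1.73 ± 0.12 in ES cells (n = 3). That is a log2 change of -4.88 (SE 0.26), or 29.5-fold lower in EB9 (limma adjusted p = 8.86e-10). Cdx2 averaged 1.99 ± 0.24 in EB9 and -4.07 ± 0.05 in ES cells, a change of 6.06 (SE 0.21), or 66.8-fold higher (adjusted p = 1.34e-11). Both of the 2 tested Cdx genes passed, where 74.8% of all genes did, and for both the groups did not overlap, as for 72.9% of all genes. Differences on single slides were -5.65, -3.99 and -4.95 for Cdx1 and 5.76, 6.10 and 6.17 for Cdx2.

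In knockdown samples the same contrast was steeper for Cdx1 and shallower for Cdx2. Cdx1 averaged -4.31 ± 0.29 in EB9 and 2.31 ± 0.15 in ES cells (SD, n = 4 each), a change of -6.63 (SE 0.24), or 99.0-fold lower (limma adjusted p = 1.51e-11). Of the 21184 genes tested, 24 fell as far or further in that contrast, Cdx1 included. Cdx2 averaged 1.47 ± 0.25 in EB9 and -3.05 ± 0.45 in ES cells, a change of 4.52 (SE 0.20), or 22.9-fold higher (adjusted p = 1.03e-10). Both passed, where 77.9% of all genes did (33.7% higher and 44.2% lower), and for both the groups did not overlap, as for 74.2% of all genes. On single slides Cdx1 differed by -7.01 to -6.14 and Cdx2 by 4.26 to 4.77. Scaling arrays to their median in place of the 75th percentile shifted all genes of the control contrast by 0.16, which is small beside these values.

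The second question was what Cbx7 knockdown does to the Cdx genes in ES cells. Cdx2 rose 2.04-fold in knockdown ES cells, by 1.03 on the log2 scale (SE 0.21, 95% interval 0.56 to 1.49, limma adjusted p = 0.00205). Cdx1 differed by 0.59 (SE 0.26, 95% interval 0.03 to 1.15), which was not past the threshold (adjusted p = 0.0944). Thus 1 of the 2 tested Cdx genes was called, where 38.5% of all genes were, and the knockdown and control arrays of both did not overlap, as for 49.6% of all genes. Slide by slide, Cdx2 was higher in knockdown by 0.65, 1.67 and 0.93 and Cdx1 by 0.59, 0.60 and 0.46. Without ES knockdown 2, the brightest of its group for Cdx2, the Cdx2 change was 0.82 (adjusted p = 0.00222). The Cdx1 difference passed when the model held ES arrays alone (adjusted p = 0.00361); the SD of Cdx1 was 0.29 and 0.60 in the EB9 groups and 0.15 and 0.12 in the ES groups.

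In EB9 both genes were lower in the knockdown group, and 1 was called. Cdx1 fell by 1.16 on the log2 scale (SE 0.24, 95% interval -1.68 to -0.64), which is 2.24-fold lower (limma adjusted p = 0.00726). Cdx2 differed by -0.52 (SE 0.20, 95% interval -0.94 to -0.09, adjusted p = 0.101). The background is that 15.2% of all genes passed in EB9, and that 15.7% had groups that did not overlap, as was the case for Cdx1. On the 4 slides Cdx1 differed by -0.77, -1.55, -1.16 and -1.16, and Cdx2 by -0.34, -0.17, -0.84 and -0.71, so that knockdown was the lower array on each slide. Cdx2 passed with the slide block (-0.52, adjusted p = 0.0391) and with the replicate block (-0.52, adjusted p = 0.042). Replicate and slide number are the same in EB9, but replicate numbers do not pair the ES arrays in that model. Without EB9 control 2, the Cdx1 change was -0.89 (adjusted p = 0.00554); in a model of EB9 arrays alone, Cdx1 did not pass (adjusted p = 0.0677).

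**Figure D2:**
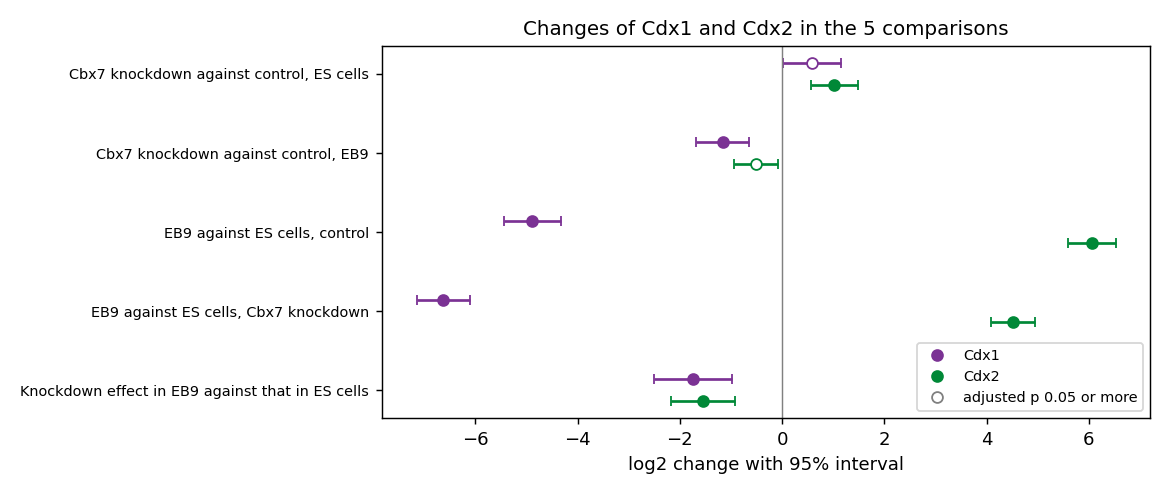
Log2 change of Cdx1 and Cdx2 in the 5 comparisons, with 95% intervals as bars; open markers did not pass an adjusted p of 0.05. Both genes lie right of 0 for knockdown in ES cells and left of 0 for knockdown in EB9, while the 2 genes lie on opposite sides for EB9 against ES cells.

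The difference between the knockdown effects at the 2 stages was tested as an interaction. It was -1.75 for Cdx1 (SE 0.35, limma adjusted p = 0.00246) and -1.54 for Cdx2 (SE 0.29, adjusted p = 0.00159). Both genes passed, where 29.7% of all genes did. On slides 1, 2 and 3, the slides that hold all groups, it was -1.36, -2.15 and -1.62 for Cdx1 and -0.99, -1.84 and -1.77 for Cdx2. Each group sat at 1 position on every slide, so that position and group cannot be told apart.

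Genes that act upstream of Cdx genes or mark the tissue in which they work were read from lists of Wnt, FGF and retinoid signals and of caudal axial progenitors. In EB9 knockdown, 8 of 21 tested signal genes fell and 0 rose, with a median log2 change of -0.32 over the 21; over all genes, 7.2% fell, 7.96% rose and the median was -0.01. Fgf8, an FGF ligand of the caudal epiblast, read -2.13, -0.95, -1.88 and -1.81 in EB9 knockdown, against -0.67, 0.19, -0.47 and -0.42 in EB9 controls. Its groups did not overlap, and it fell by 1.35 (SE 0.23, limma adjusted p = 0.0022). Wnt3, a ligand needed for the primitive streak, read -4.50, -3.46, -4.29 and -4.46 in knockdown, against -3.26, -2.80, -3.04 and -2.94 in controls. It fell by 1.17 (SE 0.28, adjusted p = 0.016), again without overlap. Wnt8a, another Wnt of the streak, was well above background on 0 of 4 knockdown and 3 of 4 control arrays and was at least 3.46-fold lower, or at least 2.25-fold without EB9 control 2. That bound sets the bright group's mean against the dim arrays. Each dim array counts at its own signal or at its lowest signal well above background, whichever is higher. EB9 control 1, at -6.06, was not well above background and entered the bright group's mean as measured, so the bound is not strict. Fgf17 was called too, but was well above background on 0 of 4 knockdown arrays and 1 of 4 control arrays. Cyp26a1, which degrades retinoic acid in the tail bud, fell by 0.77, Sp5, a Wnt target, by 1.11, and Lef1, a nuclear partner of beta-catenin, by 0.73. The groups of Lef1 overlapped.

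In ES knockdown 7 of the 21 signal genes rose and 1 fell, with a median of 0.30, where 22% of all genes rose, 16.5% fell and the median was 0.04. The 38.1% of the list that was called was near the 38.5% of all genes. Sp5 read -2.77, -2.90, -2.96 and -2.71 in ES knockdown, against -4.33, -4.15 and -4.27 in ES controls. It rose by 1.42 (SE 0.23, limma adjusted p = 0.000402), and Sp8, a related zinc-finger factor, by 1.32 (adjusted p = 0.0115). Fgf8 rose by 0.71 (adjusted p = 0.0356) and Lef1 by 0.68 (adjusted p = 0.0075). In the interaction 9 of 21 were lower in EB9 and 0 higher, beside 17% and 12.7% of all genes. Sp5 gave the interaction -2.53 (adjusted p = 9.54e-05), Fgf8 -2.06 (adjusted p = 0.000559) and Lef1 -1.41 (adjusted p = 0.000725). Of the 21, in EB9 controls against ES controls, 11 rose and 4 fell, beside 33.3% and 41.5% of all genes. Rarb, a retinoic acid receptor, was higher by 5.57, Wnt5a by 5.49, and Fgf4, an ES-cell FGF, lower by -5.96.

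Of 17 tested genes of caudal progenitors and presomitic mesoderm, 4 fell and 1 rose in EB9 knockdown (median -0.22), where 7.2% of all genes fell and 7.96% rose. T (Brachyury), the T-box factor of the streak and tail bud, read -4.39, -3.78, -5.32 and -5.37 in EB9 knockdown, against -2.76, -1.04, -1.95 and -1.92 in EB9 controls. The groups did not overlap, and T fell by 2.79 (SE 0.36, limma adjusted p = 0.000484). Mesp1, a factor of nascent mesoderm, fell by 1.67, Evx1, a homeobox gene of the streak, by 1.11, and Nkx1-2, a gene of the caudal epiblast, by 0.89 (adjusted p = 0.0467). The groups of Evx1 overlapped. Foxc2, a forkhead factor of presomitic mesoderm, rose by 0.57. In ES knockdown 5 rose and 2 fell (median -0.01), and the 41.2% called was near the 38.5% of all genes. Foxc1 rose by 1.06, Lfng by 0.91 and the Notch ligand Dll1 by 0.71, while Tbx6, a factor of presomitic mesoderm, fell by 0.51. T was at 1.01 in ES knockdown, which was not past the threshold (adjusted p = 0.059). Its ES groups did not overlap, as for 49.6% of all genes. The SD of T was 0.05 and 0.12 in the ES groups and 0.77 and 0.70 in the EB9 groups, and the model shares its spread over all groups. In the interaction 7 of the 17 were lower in EB9 and 2 higher, beside 17% and 12.7% of all genes, with T at -3.80 (adjusted p = 0.000211). In EB9 controls against ES controls 9 of 17 rose and 4 fell (76.5% called, near the 74.8% of all genes), Evx1 by 6.34. Rspo3, a Wnt agonist, was also called higher, with 4 of 4 EB9 controls and 1 of 3 ES controls well above background.

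**Figure D3:**
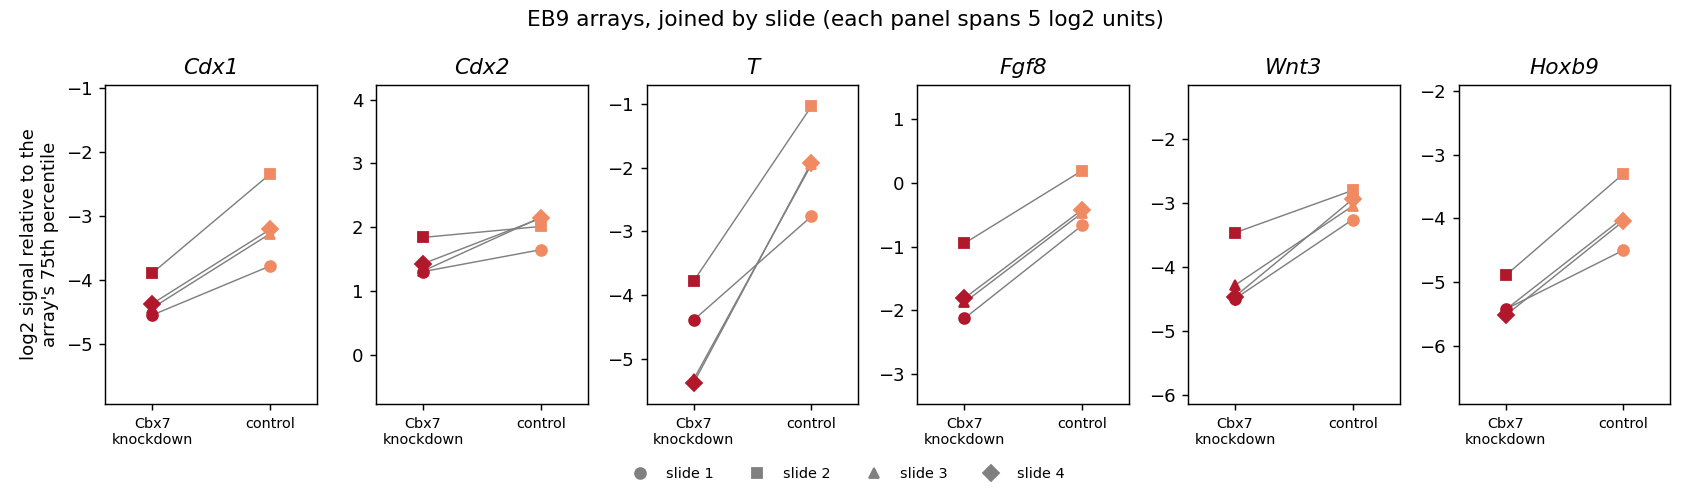
Levels of Cdx1, Cdx2, T, Fgf8, Wnt3 and Hoxb9 on the 8 EB9 arrays (log2 signal relative to the array's 75th percentile), with arrays of the same slide joined and each panel spanning 5 log2 units. The knockdown array lies below the control array on every slide for each gene, and control 2 on slide 2 is the highest EB9 array for Cdx1, T, Fgf8, Wnt3 and Hoxb9.

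Hox genes, the best known targets of Cdx proteins, were read by paralogue group, from the anterior groups 1 to 4 through the central groups 5 to 9 to the posterior groups 10 to 13. In EB9 knockdown 1 of 12 genes of groups 1 to 4 fell (median -0.27), 6 of 14 of groups 5 to 9 (median -0.52) and 1 of 11 of groups 10 to 13 (median -0.31), and 0 rose in any. The shares called were 8.33%, 42.9% and 9.09%, beside 15.2% of all genes, so the anterior and posterior groups lay below the background. With the slide as a block, 4 of the 12 passed and 2 of the 11. The 15.2% is not their background. Over all 21184 genes the slide block called 2862 higher and 2802 lower, in place of 1686 and 1525. Hoxb9, a central Hox gene, read -5.42, -4.89, -5.43 and -5.52 in EB9 knockdown, against -4.50, -3.30, -3.99 and -4.04 in EB9 controls. It fell by 1.36 (SE 0.23, limma adjusted p = 0.00223) with no overlap. Hoxb6 read -2.48, -2.08, -2.77 and -2.44 in knockdown, against -1.42, -1.02, -1.23 and -1.03 in controls, and fell by 1.26 (adjusted p = 0.00161). Hoxb7 fell by 1.04 (adjusted p = 0.000161) and Hoxb8 by 1.00 (adjusted p = 0.00934). The groups of Hoxb8 overlapped, at -3.38 in knockdown 2 and -3.41 in control 2. Hoxb1, an anterior gene first expressed in the streak, fell by 1.44 (adjusted p = 0.0312) with overlapping groups, and the posterior Hoxb13 by 0.33 (adjusted p = 0.00932).

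In ES knockdown 4 of 12 genes of groups 1 to 4 rose and 1 fell (median 0.21), 8 of 14 of groups 5 to 9 rose and 0 fell (median 0.68), and 8 of 11 of groups 10 to 13 rose and 1 fell (median 0.93). The shares called were 41.7%, 57.1% and 81.8%, beside 38.5% of all genes, so that of groups 1 to 4 was near the background. Of the 9 calls in groups 10 to 13, 3 were of genes well above background on no array of either group, and normexp background correction left 3 calls in place of 9. Over all 21184 genes normexp called 3716 higher and 3570 lower, in place of 4654 and 3493. The excess of calls in groups 10 to 13 thus depended on the background correction. Hoxb6 read -5.54, -6.21, -5.36 and -5.95 in ES knockdown, against -6.55, -7.15 and -7.03 in ES controls. It rose by 1.14 (adjusted p = 0.00109), with 1 of 3 control arrays well above background. Hoxc6 read -3.85, -3.82, -3.82 and -3.89 in knockdown, against -4.69, -4.96 and -4.68 in controls, and rose by 0.93 (adjusted p = 3.4e-05). Hoxd4 rose by 1.52, Hoxb3 by 0.91 and Hoxd1 by 0.77, all anterior genes. Hoxb9 was at 0.08 in ES knockdown (adjusted p = 0.844).

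The interaction passed for 11 of 14 genes of groups 5 to 9 and for 7 of 11 of groups 10 to 13, all lower in EB9. In groups 1 to 4 it passed for 6 of 12, of which 5 were lower and 1 higher in EB9. Of all genes 29.7% passed, 17% lower and 12.7% higher, and with normexp the 7 of groups 10 to 13 became 3. Over all 21184 genes normexp called 2778 lower and 2757 higher, in place of 3599 and 2692. Hoxb6 gave -2.41 (adjusted p = 7.8e-05) and Hoxb7 -1.62 (adjusted p = 2.22e-05). Between the stages in controls, 11 of 12, 13 of 14 and 9 of 11 genes rose in EB9 (medians 2.04, 3.51 and 3.98), where 33.3% of all genes did. Hoxd9 rose by 5.34, Hoxb5 was at least 30.0-fold higher and Hoxb8 at least 16.6-fold higher.

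**Figure D4:**
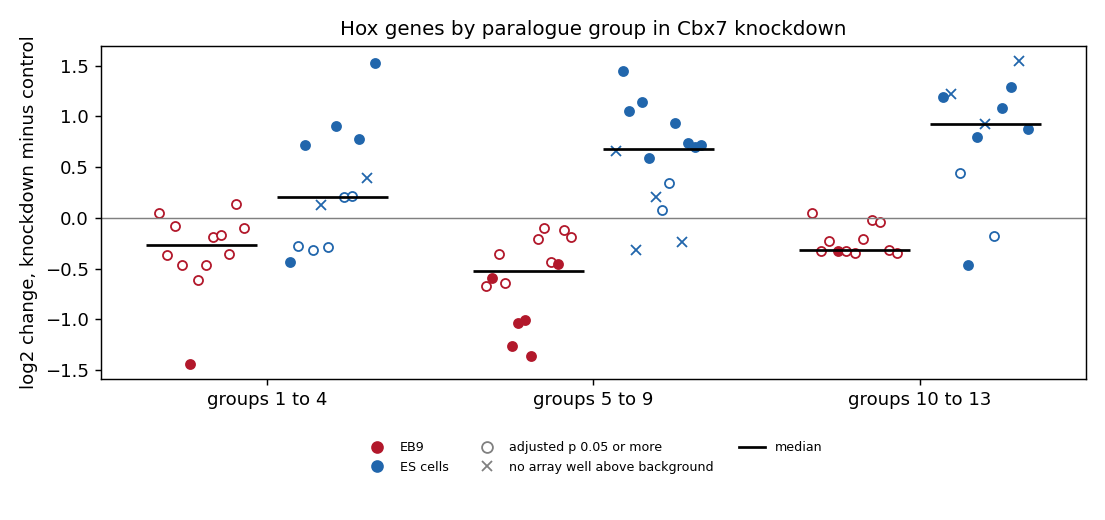
Log2 change of each tested Hox gene in Cbx7 knockdown by paralogue group, in EB9 (left of each pair) and ES cells (right), with the median as a bar; filled markers passed an adjusted p of 0.05 and crosses had no array well above background. The medians are -0.27, -0.52 and -0.31 in EB9 and 0.21, 0.68 and 0.93 in ES cells.

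Genes of the other tissues in which Cdx genes act changed in directions that differed between the lists and between the stages. Of 19 tested trophectoderm and trophoblast genes, 8 fell and 1 rose in EB9 knockdown (median -0.11), and 7 rose and 4 fell in ES knockdown (median 0.05). Over all genes, 7.2% fell and 7.96% rose in EB9, and 22% rose and 16.5% fell in ES cells. One of the EB9 calls was of a gene well above background on no array. The placental homeobox gene Rhox6 fell by 1.14 in EB9 and rose by 0.76 in ES cells, and its interaction was -1.91 (limma adjusted p = 0.00136). Eomes, a T-box factor that acts with Cdx2 in trophectoderm, fell at both stages, by 0.89 in EB9 and 1.13 in ES cells. Elf5, a trophoblast stem cell factor, fell by 1.10 in ES cells (adjusted p = 0.0116).

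Of 16 blood genes, 3 fell and 0 rose in EB9 knockdown (median -0.06), and 3 rose and 0 fell in ES knockdown (median 0.09). That is 18.8% called at each stage, near the 15.2% of all genes in EB9 and below the 38.5% in ES cells. Gata2, a factor of blood progenitors that also stands on the trophoblast list, read -1.80, -1.47, -1.77 and -1.69 in EB9 knockdown, against -1.25, -1.14, -1.24 and -1.19 in EB9 controls. In ES knockdown it read -1.42, -1.60, -1.58 and -1.63, against -2.89, -2.91 and -3.03 in ES controls. The groups did not overlap at either stage, the change being -0.48 in EB9 (adjusted p = 0.0013) and 1.39 in ES cells (adjusted p = 8.67e-08). Lmo2, its partner, fell by 0.46 in EB9 and rose by 0.93 in ES cells, and Etv2, a haemato-endothelial factor, fell by 0.99 in EB9. The EB9 groups of Lmo2 overlapped. All 16 rose in EB9 controls against ES controls (median 3.02), the embryonic globin Hba-x by at least 1660-fold.

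Of 15 tested intestinal genes, 3 rose and 3 fell in EB9 knockdown (median -0.33), and 1 rose and 5 fell in ES knockdown (median -0.45). The share called was 40% at each stage, beside 15.2% of all genes in EB9 and 38.5% in ES cells, so in ES cells it was near the background. Isx, an intestinal homeobox gene, rose by 0.93 in EB9, and Fabp1, a fatty acid binding protein, fell by 1.34. Hnf4a, a nuclear receptor of endoderm, fell by 0.86 in EB9 and by 1.11 in ES cells. The EB9 groups of Fabp1 and of Hnf4a overlapped. An ES control value of Hnf4a was missing, so its fall in ES cells rests on 2 control arrays. Of 16 pluripotency genes, 5 rose and 3 fell in EB9 knockdown (50% called, beside 15.2% of all genes). Median scaling left 4 calls in place of 8. Over all 21184 genes it called 677 higher and 721 lower in EB9, in place of 1686 and 1525. In ES knockdown 3 of the pluripotency genes rose and 3 fell (37.5% called, beside 38.5% of all genes). Dppa3 rose at both stages, by 1.06 in EB9 and 1.45 in ES cells, and Klf4 fell by 0.57 in ES cells. Pou5f1, whose class of factor reads the octamer shown above, rose by 0.38 in ES cells (adjusted p = 0.0246). Whether Pou5f1 bears on any Cdx gene here was not tested. In EB9 controls against ES controls 15 of the 16 fell (median -3.92).

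The genes whose level over the 15 arrays was most like that of each Cdx gene were named by Pearson r. For Cdx1 they were Chd1l, Supv3l1, Mthfd1, Vstm2l and Ddx21, with r of 0.998, 0.998, 0.998, 0.998 and 0.997. For Cdx2 they included Tbx4, Scube3, Bves and Sema6a, each with r of 0.997. The arrays fall into the stages, and 5252 genes had r above 0.9 with Cdx1 and 4073 with Cdx2, so these values describe mostly the split by stage. Tbx4, a T-box gene of hindlimb and allantois, read 2.31, 2.52, 2.47 and 2.23 in EB9 knockdown and 2.54, 3.01, 3.16 and 3.06 in EB9 controls. In ES knockdown it read -2.78, -2.46, -2.53 and -2.79, and in ES controls -3.77, -3.44 and -3.53. Its differences had the signs of those of Cdx2, at 0.94 for knockdown in ES cells and -0.56 for knockdown in EB9. Within the 8 EB9 arrays its r with Cdx2 was 0.916, and within the 7 ES arrays 0.929. Tbx4 was picked for its likeness to Cdx2 on these same arrays, so the shared signs and these r values are no separate evidence.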

How the data were processed

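Agilent Feature Extraction 10.7.3.1 made the deposited scanner output, and its processed signal is an intensity corrected for background, per the file headers. The authors' deposited values are on a log2 scale; from the numbers themselves, normexp (offset 50) with quantile normalisation gave the same numbers within 0.000154, and it served as an alternative. The tests were run on log2 intensity minus each array's 75th percentile, with control and outlier spots (109 to 179 an array) left out and repeated spots averaged. Each gene was represented by its brightest kept probe. Probes were named through RefSeq accessions (26424 of 39429), else by symbol. limma 3.58.1 in R 4.3.3 fitted a mean per group over 15 arrays, with two-sided tests and Benjamini-Hochberg adjustment over 21184 genes at 0.05; 79 genes had a missing value. The fit was checked on data with known answers. Members and gene lists were chosen with earlier results of these data known. Named genes are the Cdx probes, Cbx7, of each list and comparison the 4 called genes with the greatest change or fewer, and the 5 genes most like each Cdx gene. Others named beside them were chosen after their values were seen, and some that the rule names are not reported here. In EB9, where replicate and slide number are the same, deviations of paired arrays correlated at 0.30 to 0.55 (4 pairs). A pairing of samples and an effect of the slide cannot be told apart there. In ES cells same-numbered arrays correlated at -0.59 to 0.36 (3 pairs) and those of a slide at 0.46 to 0.63. The number of arrays limits the precision. Alternatives were other scalings, background correction, the authors' values, filters, blocks, models of the compared groups alone, array weights and leaving out each array.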

Additional observations from a re-analysis of the deposited data

Results flagged for a closer look

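The knockdown effect on both tested Cdx genes differed between the stages by the interaction test of limma. For Cdx1 the effect in EB9 minus that in ES cells was -1.75 (SE 0.35, adjusted p = 0.00246), from -1.16 in EB9 and 0.59 in ES cells. For Cdx2 it was -1.54 (SE 0.29, adjusted p = 0.00159), from -0.52 in EB9 and 1.03 in ES cells. The sign was negative on each of slides 1, 2 and 3 for both genes. No array of Cdx1 or Cdx2 stood apart from its group of 4 by Dixon's test, and groups of 3 were not tested.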

How the results depend on the processing

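The Cdx1 difference of knockdown in ES cells (0.59, adjusted p = 0.0944) passed with normexp or the authors' values (0.56, 0.0255), with the replicate block (0.67, 0.0363), with ES arrays alone (0.59, 0.00361) and with array weights (0.72, 0.000117). With the slide block, which pairs the ES arrays where the numbers do not, it did not pass (0.59, 0.0826). Leaving out 1 array gave 0.54 to 0.65, and it passed without EB9 control 1 (0.0482) or EB9 control 2 (0.0155). The Cdx1 fall in EB9 did not pass with EB9 arrays alone (-1.16, 0.0677), and leaving out 1 array gave -1.37 to -0.89. The Cdx2 difference in EB9 passed with the slide block (-0.52, 0.0391), the replicate block (-0.52, 0.042) and array weights (-0.63, 0.0101). Leaving out 1 array gave -0.64 to -0.46, and it passed without ES knockdown 2 (0.032) or EB9 knockdown 2 (0.0424). The other 7 of 10 tests of Cdx1 and Cdx2 kept direction and call in every alternative run, and the replicate block changed no other call of these genes. Neither Cdx gene changed the sign of any difference. Genes passing in EB9 knockdown numbered 3211, against 1398 with median scaling, 5664 with the slide block, 1133 with EB9 arrays alone, 6481 with array weights, and 1898, 1807 and 2035 without EB9 knockdown 3, EB9 knockdown 4 and EB9 control 4. In ES knockdown array weights gave 14011 in place of 8147. For the interaction, median scaling gave 3929 and array weights 10097 in place of 6291. Called Hox genes of groups 1 to 4 in ES knockdown numbered 8 with the slide block and 3 with normexp, in place of 5. Those of groups 10 to 13 numbered 3 with normexp for the interaction, in place of 7, and 3 in EB9, in place of 1. Over all 21184 genes, the slide block called 5788 higher and 4268 lower in ES knockdown, and normexp 3716 and 3570. For the interaction normexp called 2757 higher and 2778 lower, and in EB9 1372 and 1200. Pluripotency calls in EB9 numbered 4 with median scaling, in place of 8. The bound for Wnt8a in EB9 knockdown, at least 3.46-fold lower, was 2.25-fold without EB9 control 2, an alternative chosen after seeing the data. The causes were not tested. The Cdx4 probe gives an upper bound at any setting.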

Other observations

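The genes beside the Cdx genes in RefSeq order, looked up after values were seen, differed in how they changed between the stages. Slc6a7, a proline transporter gene next to Cdx1, was well above background on 0 of 4 EB9 knockdown arrays and was at least 17.2-fold lower there than in ES knockdown. Of the EB9 controls, 1 of 4 was well above background, EB9 control 2, which was also the highest EB9 array for Cdx1. Pdgfrb, on the other side of Cdx1, was higher by 2.34 in controls (adjusted p = 4.53e-11). Beside Cdx2, which rose in EB9, Gsx1 was lower by -3.85 and -3.61, and Flt3 by -1.91 and -1.68, in controls and in knockdown. Pdx1, next to Cdx2, did not pass in controls (-1.34, limma adjusted p = 0.05) and was lower by -2.30 in knockdown (0.00142). In ES knockdown, of the genes beside Cdx4, Nap1l2 rose by 0.53 (adjusted p = 0.00168), Chic1 was at -0.09 (0.691), and the next genes out, Tsx and 4930519F16Rik, fell by 1.88 (9.08e-06) and by 2.19 (0.000439).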
